A study of Homo sapiens with 10 samples.

Results

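HSH2D-high cells are HCT-116 colon cancer cells that, after doxorubicin (DOX), carried at least 5 mRNA molecules of HSH2D, and HSH2D-negative cells are cells of the same libraries in which no HSH2D molecule was counted. The cells were chosen by their HSH2D UMI counts alone, among barcodes called deep. Deep barcodes had 20000 to under 150000 unique molecular identifiers (UMIs, counted mRNA molecules), fewer than 12000 genes and a mitochondrial share under 8%. This gave 404 HSH2D-high cells (208 and 196 in DOX replicates 1 and 2) and 519 HSH2D-negative cells (302 and 217) among 2221 deep DOX cells and 23229 barcodes in all. The remaining 1298 deep DOX cells had 1 to 4 HSH2D UMIs and are called HSH2D-low. HCT-116 is an established human colon cancer line, and the genotype of every sample was given as WT. The DOX cells had received 200 nM doxorubicin, a topoisomerase poison that breaks DNA, for 24 h and were collected after 6 days without the drug, whereas the untreated cells, also in 2 libraries, received none. The labels do not say whether the replicates came from separate cultures. The p-values rest on how the difference between groups varied between these libraries, which may be technical, and on variance information shared across genes. In the main comparison 4 sums left 1 residual degree of freedom per gene, so small p-values do not stand for wide replication. Bulk RNA samples of the study were not analysed here.

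HSH2D (ENSG00000196684) encodes a small adaptor protein with an SH2 domain, the module that docks on phosphorylated tyrosines, and it is best known from blood cells. Interferon signaling runs from surface receptors through JAK kinases to STAT proteins, STAT2 among them, which join IRF9 in the complex ISGF3. ISGF3 binds the interferon-stimulated response element (ISRE) in promoters of interferon-stimulated genes (ISGs), whose products sense and disable viral RNA. A form of the complex with unphosphorylated STATs, U-ISGF3, maintains a subset of these genes, and DNA damaging drugs are among the treatments known to raise that subset in cancer cells.

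The ISRE core was searched on both strands as GAAA, 2 bases of any kind and GAAA (TTTC, 2 bases and TTTC on the other strand) in RefSeq promoter windows of 300 bases, which run from 250 bases before to 50 bases after each gene start on GRCh38.p14. The sites below belong to ISGs that were higher in HSH2D-high cells and are shown because they are the element through which ISGF3 acts. They are a selection, and sites of PARP12, PARP14, TRIM14 and C19orf66 are among those not shown. Capitals mark the core, positions are those of its first base counted from the gene start on the gene's strand, and the 2 IFIT1 windows overlap.
DDX60, position -53, chr4:168318788-168318813, minus strand: ggagaaagGAAACCGAAActcccgcc
DDX60, position -88, chr4:168318823-168318848, minus strand: gctgaaggGAAACTGAAAcctaagtg
EPSTI1, position -50, chr13:42992274-42992299, minus strand: gattctgaGAAACCGAAActcagctg
IFI44, position -18, chr1:78649763-78649788, plus strand: acactgagTTTCAGTTTCctttctct
IFIT1, position -116, chr10:89392499-89392524, plus strand: agctttagTTTCACTTTCccctttcg
IFIT1, position -103, chr10:89392512-89392537, plus strand: ctttccccTTTCGGTTTCcctaggtt
OAS3, position -143, chr12:112938323-112938348, plus strand: aaagaaacGAAACTGAAAgcagggaa
OAS3, position -12, chr12:112938454-112938479, plus strand: ccgggcggGAAAACGAAAccagaaat
EIF2AK2, position -6, chr2:37156969-37156994, minus strand: tccaagggGAAAACGAAActgagaac
SAMD9, position -136, chr7:93118098-93118123, minus strand: tgagaaatGAAACTGAAAccaaacct

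Of 26 ISGs that were higher in HSH2D-high cells, 23 had a window in this table and 11 of these (47.8%) held the core. Of 35 ISGs tested and not called higher, 25 had a window and 16 of these (64.0%) held it. The share with the core was thus no higher among the ISGs that moved with HSH2D, and no test was made of it. Of all 27305 windows 996 (3.65%) held the core, and of 9903 windows of genes tested 269 (2.72%) did. A match describes the letters of the window and is no measure of binding.

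HSH2D itself chose the groups, so its levels are given as a description. On hg19, the build of the count tables, it lies at chr19:16244838-16269386 on the plus strand and spans 24.5 kb. Pooled over all their UMIs, HSH2D-high cells had 76.4 and 73.9 CPM of HSH2D (UMIs scaled to a total of 1000000) in replicates 1 and 2, and HSH2D-low cells had 27.2 and 26.0 CPM. High cells held a median of 6 HSH2D UMIs in each library and at most 21 and 16. Over all deep cells the level was 31.7 and 32.3 CPM in DOX libraries against 7.92 and 9.06 CPM in untreated libraries. High cells made up 16.5% (95% exact binomial interval 14.5 to 18.7%) and 20.4% (17.9 to 23.1%) of deep DOX cells against 0.602% (0.368 to 0.929%) and 1.61% (1.10 to 2.28%) of deep untreated cells, intervals that cover counting error only.

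HSH2D-high cells also held more UMIs in all, and a threshold on raw HSH2D UMIs by itself favours cells with more UMIs. They had medians of 89405 and 93521.5 UMIs, and HSH2D-negative cells 60204.5 and 69307 UMIs. Each cell was therefore thinned at random to 20000 UMIs, which left HSH2D in 79.8% and 74.5% of the high cells, and all values below come from thinned cells unless stated. Thinned high cells still had more genes, with medians of 5538.5 and 5536.5 against 4973.5 and 5098 in negative cells. Their mitochondrial share had medians of 5.42% and 5.63% against 5.10% and 5.19%. On either side of the threshold, cells with 5 HSH2D UMIs (79 and 55 cells) had medians of 24 and 23 UMIs of U-ISGF3-induced genes per thinned cell and those with 4 (104 and 82 cells) had 24.5 and 22.5. At the lower limit, cells with 1 HSH2D UMI (299 and 179 cells) had medians of 18 and 19 and cells with none had 19 and 16.

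Both groups were epithelial by their markers and not blood cells, although HSH2D is best known from blood cells. That the cells are of colon is known from the line. With all UMIs counted, the summed level of 11 epithelial markers, led by keratins, was 6056 and 4960 CPM in HSH2D-high cells against 6324 and 6426 CPM in HSH2D-negative cells, with CEACAM5 at 0 in every group. KRT8, KRT18, KRT19 and EPCAM carried most of this sum. KRT20, VIL1, LGALS4 and CDX1 had at most 2.34 CPM and CDX2 at most 12.1 CPM in any group. In thinned cells 6 of the 11 were tested, and CDH1 was higher (log2 fold change 0.69, 0.38 in replicate 2 alone) and KRT18 lower. The 12 blood and immune markers summed to 1.72 and 1.48 CPM with all UMIs against 1.78 and 3.05 CPM, 1 of them was abundant enough to be tested with all UMIs and was not called, none was in thinned cells, and CD3D and NKG7, markers of T and NK cells, were at 0. Of 6 fibroblast and endothelial markers, 5 were in the tables and summed to 6.14 and 7.55 CPM with all UMIs against 4.03 and 5.06 CPM, with COL1A2 at 0. The DOX libraries shared 24 barcodes, none of them deep, and a DOX and an untreated library shared at most 2 deep barcodes. No doublet caller was used.

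HSH2D-high cells carried more mRNA of interferon-stimulated genes than HSH2D-negative cells. Across all genes, summed per library and group and compared within libraries by edgeR's quasi-likelihood test with Benjamini-Hochberg adjustment (threshold 0.05), 1285 of 12921 genes (9.95%) were higher and 984 (7.62%) were lower in HSH2D-high cells. Of 79 ISGs in 3 lists (components of ISGF3, U-ISGF3-induced genes and other type I ISGs), 61 passed the filter on low counts, and of these 26 were higher and 0 lower. Their median log2 fold change was 0.48, against 0.02 over all genes tested, and 52 of the 61 were above 0. Scaling by library totals in place of TMM factors raised the median of all genes by 0.22 on the log2 scale and gave 1836 higher and 185 lower genes, with 34 ISGs higher and 0 lower. The same cells with all their UMIs gave 2229 higher (13.7%) and 2050 lower genes (12.6%) of 16327, with 36 higher and 4 lower of 72 ISGs (IFIT2, IFITM2, IFITM3 and CNP, named after their values were seen). DESeq2, run on the same thinned sums, called 242 higher and 438 lower genes and only 3 of the 61 ISGs (DDX58, SAMD9 and EIF2AK2), all higher.

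STAT2 and IRF9, components of ISGF3, rose. STAT2, the partner that gives the complex its activating domain, had 27.6 and 22.7 CPM in HSH2D-high cells against 10.4 and 10.1 CPM in HSH2D-negative cells (log2 fold change 1.07 ± 0.24, SE, adjusted p = 0.000511). IRF9, the subunit that reads the ISRE, had 9.38 and 6.63 CPM against 2.48 and 3.69 CPM (1.18 ± 0.40, adjusted p = 0.0274). For both genes both high values lay above both negative values, but the calls were of unequal firmness. Among 17 alternative settings STAT2 was called in 15 and IRF9 in 8. In replicate 2 alone IRF9 stood at 0.64, against 1.54 in replicate 1 alone.

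**Figure D1:**
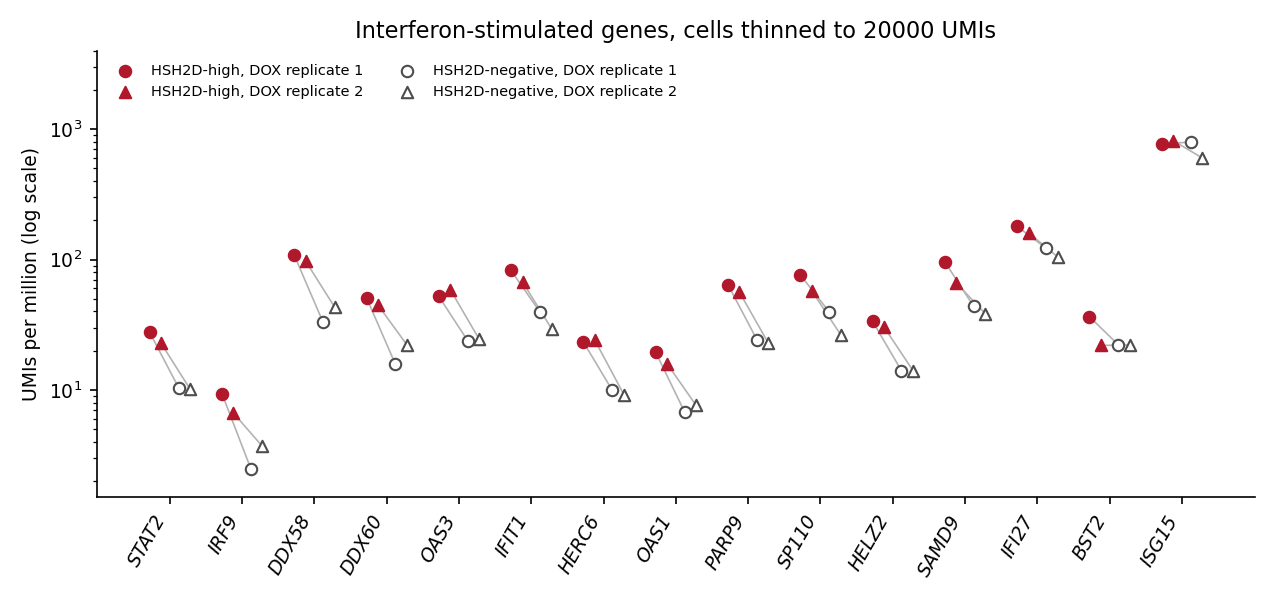
Levels of 15 interferon-stimulated genes in CPM (log axis), in cells thinned to 20000 UMIs; filled points are HSH2D-high and open points HSH2D-negative sums, circles are DOX replicate 1 and triangles replicate 2, and lines join the groups of a library. DDX58 lay at 108 and 96.9 CPM in high cells against 32.9 and 43.1 CPM in negative cells, whereas ISG15 and BST2 were not ordered by group.

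Of 20 tested U-ISGF3-induced genes 10 (50%) were higher and 0 lower, beside 9.95% and 7.62% over all genes tested (29 were sought, and 9 were too low). Their median log2 fold change was 0.49, with medians of 0.58 in replicate 1 and 0.53 in replicate 2. DDX58, the cytosolic RNA sensor RIG-I (hg19 chr9:32455300-32526206), had the smallest p, with 108 and 96.9 CPM in HSH2D-high cells against 32.9 and 43.1 CPM in HSH2D-negative cells (1.23 ± 0.18, adjusted p = 3.34e-09), and it was called in 18 of 18 alternatives. DDX60, a helicase that assists RIG-I, had 51.0 and 44.6 CPM against 15.7 and 22.1 CPM (1.14 ± 0.20, adjusted p = 1.59e-06). The groups did not overlap for either gene. OAS1 and OAS3, synthetases of the oligoadenylates that switch on RNase L, rose by 1.08 ± 0.27 (19.5 and 15.8 CPM against 6.79 and 7.60 CPM, adjusted p = 0.00215) and by 0.97 ± 0.19 (52.2 and 58.7 CPM against 23.8 and 24.4 CPM, adjusted p = 2.78e-05). IFIT1, which binds viral RNA caps, had 82.5 and 67.1 CPM against 39.6 and 29.5 CPM (0.90 ± 0.18, adjusted p = 6.11e-05). Further calls were HERC6 (1.08), EPSTI1 (1.20), IFI44 (1.02) and BATF2 (1.53, with 0.88 in replicate 1 alone).

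Several members of this list did not pass the test. ISG15, the ubiquitin-like modifier, had 771 and 817 CPM in HSH2D-high cells against 797 and 603 CPM in HSH2D-negative cells (-0.02 ± 0.17, adjusted p = 0.940), and the libraries went opposite ways. IFI27, a mitochondrial ISG product, had 179.8 and 160.2 CPM against 122 and 105 CPM (0.36 ± 0.17, adjusted p = 0.120). BST2, the tetherin that holds virions at the cell surface, had 36.5 and 21.9 CPM against 22.2 and 22.1 CPM (0.16 ± 0.21, adjusted p = 0.624). Their groups overlapped for ISG15 and BST2 and did not for IFI27, whose difference did not pass the test. For IFIT3, IRF7, OASL and HERC5 the log2 fold changes lay between 0.02 and 0.09.

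Among other type I ISGs, 14 of 39 tested (35.9%) were higher and 0 lower, beside 9.95% and 7.62% over all genes tested (median 0.45, 48 sought). PARP9, of the ADP-ribosyltransferase family, had 64.2 and 56.1 CPM in HSH2D-high cells against 24.3 and 22.8 CPM in HSH2D-negative cells (1.13 ± 0.19, adjusted p = 6.04e-07), and PARP12 (0.63) and PARP14 (0.58) also rose, while PARP10 was not called (0.06, adjusted p = 0.955, with 0.60 in replicate 1 and -0.62 in replicate 2). SP110, a nuclear body protein, had 76.4 and 57.7 CPM against 39.7 and 26.5 CPM (0.80 ± 0.18, adjusted p = 0.000512), and its relative SP100 rose by 0.50, with 0.13 in replicate 2 alone. HELZ2, a helicase, had 33.7 and 30.4 CPM against 14.1 and 14.1 CPM (0.97 ± 0.22, adjusted p = 0.000522). In each of PARP9, SP110 and HELZ2 the groups were apart. EIF2AK2, the RNA-activated kinase PKR that halts translation, had 213 and 239 CPM against 137 and 133 CPM (0.52 ± 0.17, adjusted p = 0.0184), with 0.33 in replicate 1 alone. The remaining calls were USP18, which shuts off the receptor (0.73), TDRD7 (1.11), SAMD9 (0.75), the ribosomal frameshift inhibitor C19orf66 (0.65), TRIM14 (0.63), SLFN5 (0.58) and the zinc finger antiviral protein ZC3HAV1 (0.47). IFITM3, a membrane protein that blocks viral entry, had 493 and 492 CPM against 544 and 553 CPM (-0.37 ± 0.17, adjusted p = 0.100).

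Calls in upstream and parallel parts of the pathway are set beside the shares over all genes tested, 9.95% higher and 7.62% lower. The share higher was 12.5% of JAK and STAT genes, 16.7% of interferon and receptor genes and 20% of MHC class I genes. It was 8.33% of SH2 adaptor genes and 0% of the sensor and the interferon gamma lists. These lists are short, so a single call moves their shares widely. Of 8 tested JAK and STAT genes outside ISGF3, STAT5B alone was called, with 24.5 and 27.8 CPM in HSH2D-high cells against 9.11 and 13.4 CPM in HSH2D-negative cells (1.02 ± 0.24, adjusted p = 0.000737), and 0 were lower. Of 6 tested interferon and receptor genes, IFNLR1, the chain specific to interferon lambda, rose by 0.79 ± 0.29 (14.9 and 13.8 CPM against 5.96 and 8.53 CPM, adjusted p = 0.0367, 0.51 in replicate 2 alone), while the type I receptor chains IFNAR1 (0.24) and IFNAR2 (0.28) did not pass. None of 9 nucleic acid sensors and adaptors outside the ISG lists was called (median 0.21), and none of 8 interferon gamma and IRF1 genes (median -0.14, and 0.08 with library totals). Of 15 MHC class I presentation genes 3 were higher, namely NLRC5, the activator of class I genes (12.7 and 15.1 CPM against 4.30 and 6.22 CPM, 1.20 ± 0.31, adjusted p = 0.00242), and the peptide trimming proteases ERAP1 (1.11, with 0.53 in replicate 2 alone) and ERAP2 (0.99), yet the list median was -0.07 (0.15 with library totals). Among 12 tested SH2 adaptor genes other than HSH2D, SH2D3A was higher (0.60 ± 0.21, adjusted p = 0.0361) and 0 were lower.

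Single cells of the 2 groups overlapped widely in the UMI sum of the U-ISGF3-induced genes. ISG15, which did not pass the test, made up much of that sum. It had 771 and 817 of the list's 1754 and 1718 CPM in HSH2D-high cells. In HSH2D-negative cells it had 797 and 603 of 1349 and 1136 CPM. HSH2D-high cells had medians of 28 and 27 UMIs of the 29 U-ISGF3-induced genes per thinned cell, with quartiles of 15.75 and 44 in replicate 1 and 16.75 and 44.25 in replicate 2. HSH2D-negative cells had medians of 19 and 16, with quartiles of 11 and 33.75 and of 10 and 28. The upper quartile of all deep DOX cells of a library was exceeded by 36.5% (29.99 to 43.5%) and 36.7% (29.98 to 43.9%) of high cells against 21.9% (17.3 to 26.9%) and 16.1% (11.5 to 21.7%) of negative cells. The ranges in brackets are exact binomial intervals over the cells of a library, as for the shares of high cells above. They cover counting error only, treat cells as independent and are no test of the difference between groups.

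Levels were also summed by the number of HSH2D UMIs in a cell, as a description with no test. DDX58 had 32.9, 44.7, 83.8, 92.9 and 132 CPM in replicate 1 at 0, 1 to 2, 3 to 4, 5 to 6 and at least 7 HSH2D UMIs, and 43.1, 56.3, 65.1, 94.7 and 99.5 CPM in replicate 2. In both libraries each step of this gene was upward. IFIT1 had 39.6, 41.5, 40.4, 79.4 and 87.2 CPM in replicate 1 and 29.5, 39.2, 45.5, 52.9 and 83.2 CPM in replicate 2, so that in replicate 1 the first 3 values were alike. The sum of U-ISGF3-induced genes was 1870 and 1862 CPM at 7 or more HSH2D UMIs, 1350 and 1331 CPM at 3 to 4, and 1349 and 1136 CPM at 0. In untreated cells that sum was 294 and 266 CPM at 3 to 4 HSH2D UMIs and 247 and 246 CPM at 0.

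**Figure D2:**
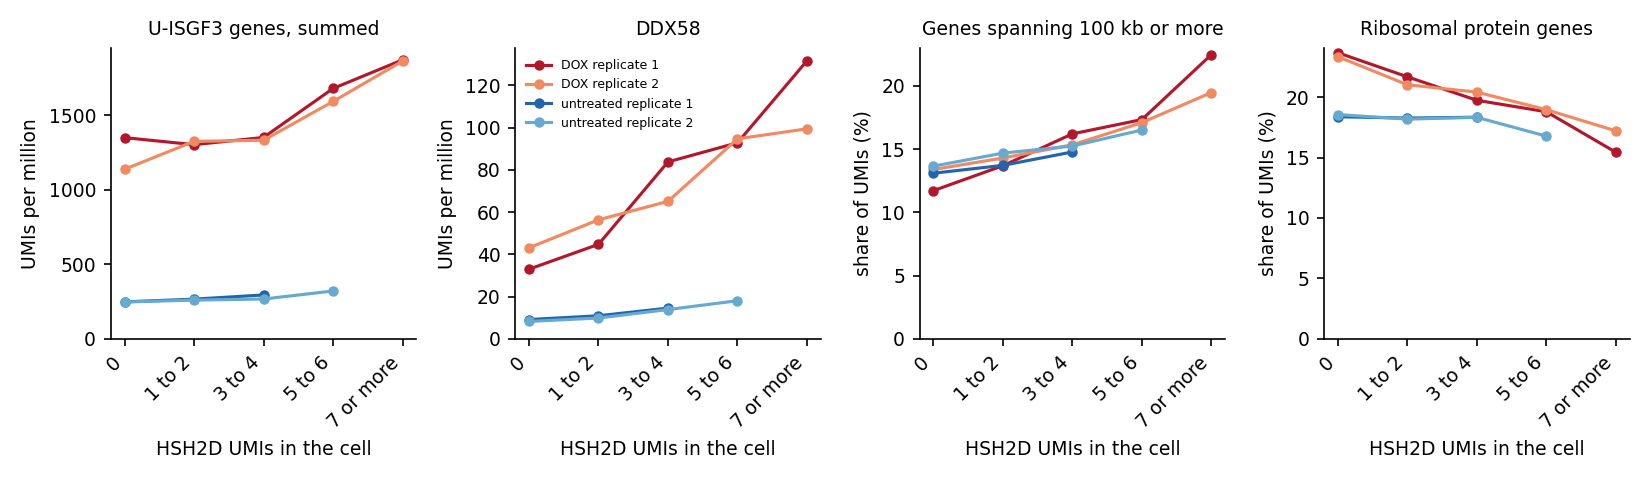
Levels by the number of HSH2D UMIs in the cell (horizontal axis) in thinned cells of the 4 libraries, for the sum of U-ISGF3-induced genes and DDX58 (CPM) and for the share of UMIs (%) from genes spanning 100 kb or more and from ribosomal protein genes; each point is the sum over the cells of a library, drawn where at least 20 cells were present. DDX58 climbed to 132 and 99.5 CPM in DOX cells with 7 or more HSH2D UMIs, and the share from ribosomal protein genes declined to 15.4% and 17.2%.

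HSH2D-low cells were compared with the same HSH2D-negative cells, so this comparison shares one of its groups with the main one. Of 14246 genes, 136 (0.955%) were higher and 163 (1.14%) were lower in HSH2D-low cells. DDX58 (log2 fold change 0.55, adjusted p = 0.00578), OAS3 (0.52, adjusted p = 0.0328) and PARP9 (0.60, adjusted p = 0.00629) were higher, and the remaining ISGs were not called, IFIT1 with 0.16 among them. The median was 0.17 for 22 tested U-ISGF3-induced genes against 0.00 over all genes. Without the library as a block no gene was called in either direction.

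The ISG difference came together with a wide change in RNA composition. Genes spanning a long stretch of the genome were higher in HSH2D-high cells and short genes lower. In the decile of genes with the shortest span (0.138 to 6.03 kb) 14 of 1271 were called higher and 349 lower, with a median log2 fold change of -0.39, and in the decile with the longest (180 to 2305 kb) 547 of 1271 were called higher and 28 lower, with a median of 0.49. Spearman's rho between span and log2 fold change was 0.529 across 12705 genes, which are not independent replicates. The share of UMIs from genes spanning 100 kb or more had medians of 17.1% and 16.4% in HSH2D-high cells and 11.1% and 12.6% in HSH2D-negative cells. Of 3 nuclear retained RNAs 2 were higher, since MALAT1 had 15259 and 11701 CPM against 4916 and 6036 CPM (1.08 ± 0.18, adjusted p = 5.54e-07) and NEAT1, the scaffold of paraspeckles, 1387 and 789 CPM against 319 and 466 CPM (1.22 ± 0.17, adjusted p = 1.16e-09, 0.58 in replicate 2 alone), while KCNQ1OT1 did not pass (0.41, adjusted p = 0.140). Ribosomal protein genes moved the other way, with 0 higher and 76 lower of 81 (median -0.60), and 74 lower with library totals. The share lower was 93.8%, beside 7.62% over all genes tested. Ribosomal protein genes took a median of 18.8% of the UMIs in high cells of either library, against 22.4% and 21.9% in negative cells.

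**Figure D3:**
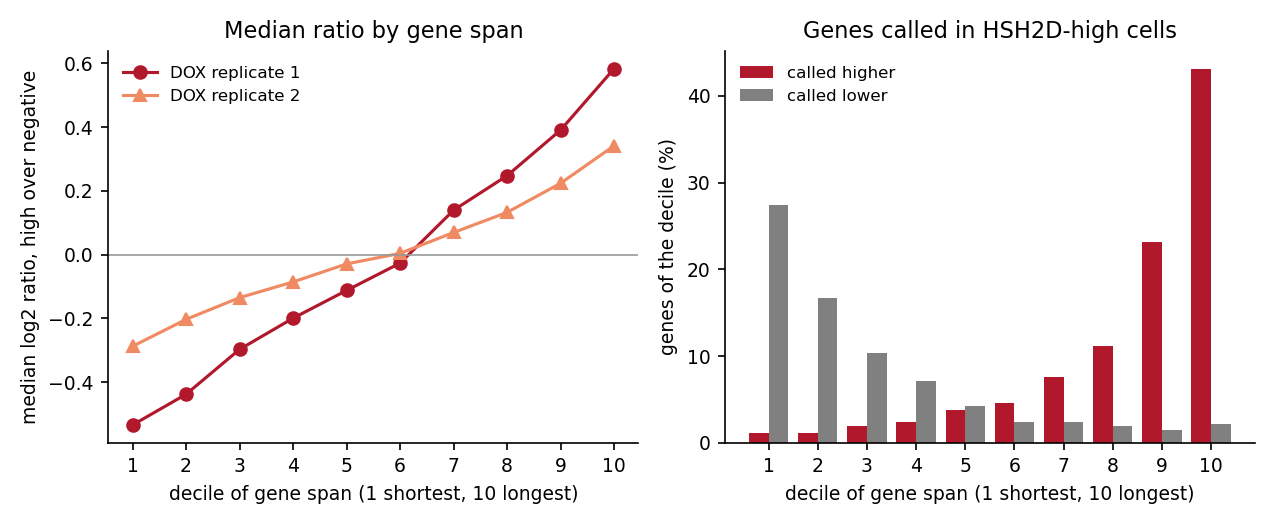
Left, median log2 ratio of HSH2D-high over HSH2D-negative cells by decile of gene span (1 shortest, 10 longest) in each DOX library; right, percent of the genes of each decile that were called higher or lower. The median climbed with span in both libraries, and calls changed from 349 lower genes in the shortest decile to 547 higher genes in the longest.

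High and negative cells were then matched within each library. Matching on the long gene share and on the ribosomal protein share was chosen after the data were seen. Matched on the share of UMIs from genes spanning 100 kb or more (145 and 125 cells per group), 17 of 12040 genes (0.141%) were higher and 12 (0.0997%) lower in HSH2D-high cells. Of the 17 genes 8 were ISGs, out of 59 tested, namely DDX58, IFIT1, IFI27, IFI6, ISG15, OAS3, PARP9 and SP110, and 0 ISGs were lower. The median log2 fold change of U-ISGF3-induced genes was 1.09 and that of other ISGs 0.50, while the median of ribosomal protein genes was 0.02 and that of all genes 0.00. In the all-UMI counts of the same matched cells 28 of 14924 genes (0.188%) were higher and 6 (0.0402%) lower, with 14 ISGs among the 28. Matched on the ribosomal protein share (168 and 138 cells per group), 35 of 58 tested ISGs were higher and 0 lower, of 484 higher (3.98%) and 429 lower genes in all. Matched on UMIs (154 and 133 cells per group), 31 of 58 were higher and 2 lower, of 1853 higher (15.3%) and 1716 lower genes in all.

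**Figure D4:**
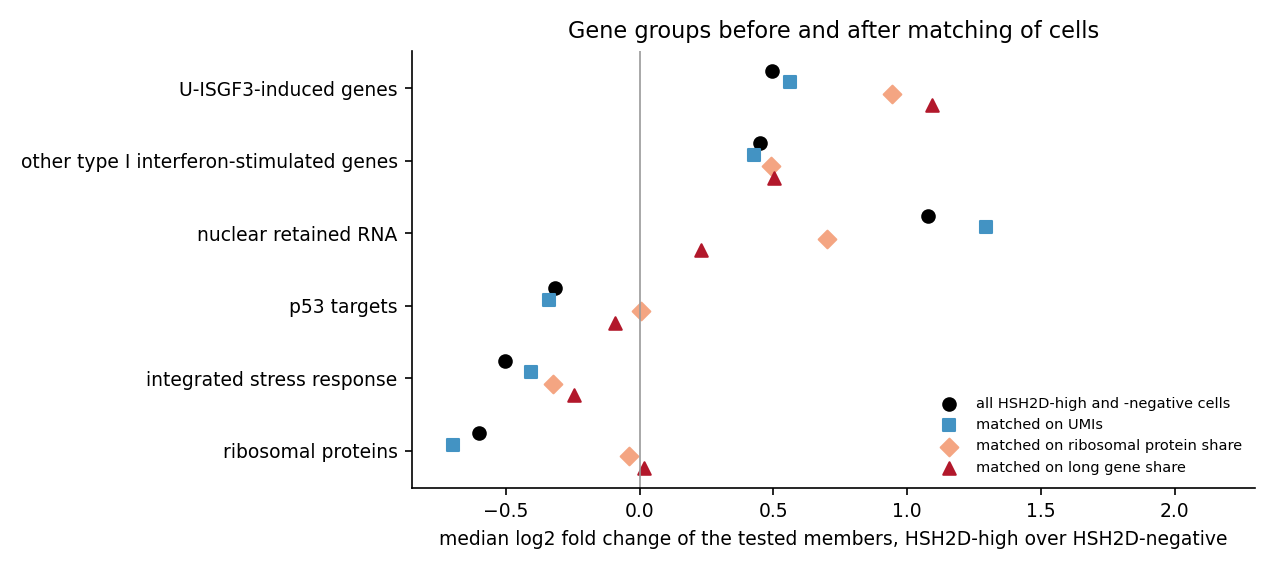
Median log2 fold change of the tested members of 6 gene lists, HSH2D-high over HSH2D-negative cells thinned to 20000 UMIs, for all cells and for cells matched within libraries on UMIs, on the ribosomal protein share or on the share of UMIs from genes spanning 100 kb or more. The U-ISGF3 median stood at 0.49 for all cells and at 1.09 after matching on the long gene share, whereas the ribosomal protein median stood at -0.60 and 0.02.

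Part of the DNA damage response genes was lower in the summed UMIs of HSH2D-high cells. Of 29 tested targets of p53, the regulator that halts damaged cells, 1 was higher and 10 lower (median -0.32). These shares were 3.45% and 34.5%, beside 9.95% and 7.62% over all genes tested. With library totals 1 was higher and 2 lower. Per thinned cell the libraries went opposite ways. The list's UMIs had medians of 33.5 and 23 in HSH2D-high cells against 26 and 25 in HSH2D-negative cells. The upper quartile of all deep DOX cells of a library was exceeded by 29.3% and 21.9% of high cells. Among negative cells it was 24.5% and 33.6%. CDKN1A, the cell cycle inhibitor p21, had 234 and 162 CPM in HSH2D-high cells against 324 and 225 CPM in HSH2D-negative cells (-0.69 ± 0.17, adjusted p = 0.00126), with high below negative in each library although the groups overlapped across libraries. The BH3 proteins PMAIP1 (-0.65) and BBC3 (-0.61), the nuclease AEN (-0.87, with -0.54 in replicate 2 alone) and the stress sensor SESN2 (-0.60) were lower too. PPM1D, the phosphatase that turns p53 off, was the member that rose (69.0 and 59.9 CPM against 32.0 and 44.5 CPM, 0.56 ± 0.18, adjusted p = 0.0196, 0.25 in replicate 2 alone). GDF15, a secreted stress factor, had 323 and 216 CPM against 255 and 202 CPM (0.00 ± 0.17, adjusted p = 0.999). After matching on the ribosomal protein share the p53 median was 0.01, with 2 targets higher and 3 lower, and after matching on the long gene share it was -0.09 with none called.

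Of 12 genes of the integrated stress response, which slows translation and induces ATF4 targets, 5 were lower and 0 higher (median -0.50). The share lower was 41.7% in this short list, beside 7.62% over all genes tested. With library totals 2 were lower. The list median was -0.78 in replicate 1 and -0.26 in replicate 2. ATF3 had 26.4 and 34.7 CPM in HSH2D-high cells against 88.7 and 81.6 CPM in HSH2D-negative cells (-1.71 ± 0.18, adjusted p = 1.31e-16). DDIT3, the factor CHOP, had 9.62 and 23.2 CPM against 53.3 and 36.9 CPM (-1.72 ± 0.21, adjusted p = 2.98e-13, -0.84 in replicate 2 alone). GADD45A, a p53 and stress target, had 55.8 and 68.6 CPM against 196.2 and 142.6 CPM (-1.66 ± 0.18, adjusted p = 1.15e-16). The groups were apart for these 3 genes, but single negative cells weighed on the last, as 1 cell held 509 of the 1185 GADD45A UMIs of negative cells in replicate 1 and 1 cell 205 of 619 in replicate 2. Without the 3 cells that held most UMIs of a gene in each library and group, a setting chosen after the data were seen, the values were -0.79 for GADD45A, -1.10 for ATF3 and -1.58 for DDIT3, with adjusted p of 5.06e-05, 1.01e-06 and 1.33e-09. Among cells above the median share of S phase and G2/M transcripts none of the 3 was called, with GADD45A at -0.11, ATF3 at -0.33 and DDIT3 at -0.62.

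Proliferation genes did not follow one direction. Of 39 S phase genes 0 were higher and 4 lower (median -0.19, and 0.03 with library totals). Of 52 G2/M genes 2 were higher and 6 lower (median 0.05). The shares lower, 10.3% and 11.5%, lay near the 7.62% over all genes tested. The shares higher were 0% and 3.85%, beside 9.95% over all genes tested. CDC20, an activator of the anaphase-promoting complex, had 116 and 124 CPM in HSH2D-high cells against 189 and 156 CPM in HSH2D-negative cells (-0.74 ± 0.17, adjusted p = 0.00069), and the apoptosis inhibitor BIRC5 fell by 0.48, with -0.12 in replicate 2 alone. The S phase median was -0.57 in replicate 1 and 0.05 in replicate 2, and the G2/M median was -0.27 and 0.31, so the libraries went opposite ways for both lists. MKI67 (0.30), PCNA (-0.28), the lamin LMNB1 (-0.13) and ANAPC1 (0.28) were not called. Among cells below the median share of S phase and G2/M transcripts 11 of 59 ISGs were higher and 1 lower, beside 975 higher genes (8.13%) of 11993 in all. Among cells above it 34 of 54 were higher and 1 lower, beside 1017 higher genes (9.19%) of 11066 in all, and the difference between these sets of cells was not tested.

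The genes with the largest rises were mostly long. Under the rule for named genes (called with and without thinning, same sign in both libraries, at least 20 CPM), the 10 largest rises were the transcripts AC027119.1, AC026167.1 and AC010967.2, the semaphorin co-receptor NRP1, RPE65, the transcription factor FOXP2, CCDC146, LMF1, the actin-binding NEBL and the vesicle protein SYTL2, with log2 fold changes of 1.38 to 1.67 and spans of 21.1 to 607 kb. NRP1 had 19.2 and 22.4 CPM in HSH2D-high cells against 5.96 and 5.53 CPM in HSH2D-negative cells (1.62 ± 0.28, adjusted p = 1.07e-06). NEBL, at 103 and 81.9 CPM against 30.6 and 29.5 CPM (1.39 ± 0.18, adjusted p = 2.98e-11), was also called after matching on the long gene share. Besides DDIT3, ATF3 and GADD45A, the 10 largest falls held GAST, KRTAP3-1 (-1.58, with -0.89 in replicate 1 alone), ING2, ZBTB33, LCN2, UPP1 and EIF2B5. LCN2, an iron-scavenging protein of epithelia, had 22.4 and 20.7 CPM against 51.0 and 40.1 CPM (-1.30 ± 0.20, adjusted p = 2.41e-08) and -1.63 without the top cells. GAST, which encodes gastrin, had 5.53 and 0.765 CPM against 57.6 and 3.46 CPM (-3.47, with -2.05 in replicate 2 alone), but 1 negative cell of replicate 1 held 333 of its 348 UMIs, and without the top cells it was too low to be tested. EIF2B5 and ZBTB33 were likewise not called without the top cells (adjusted p = 0.0703 and 0.377), and stood at -0.25 in replicate 2 alone and -0.36 in replicate 1 alone.

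No tested gene beside HSH2D passed the test. RAB8A, whose end overlaps the start of HSH2D on the same strand, had 78.4 and 72.4 CPM in HSH2D-high cells against 87.9 and 80.2 CPM in HSH2D-negative cells (-0.38 ± 0.17, adjusted p = 0.115). TPM4 (0.05), FAM32A (-0.39) and AP1M1 (0.07) were not called, and CIB3, 2793 bases past the end of HSH2D, and 5 noncoding neighbours were too low to be tested. One of these, CTD-2231E14.8, runs antisense to HSH2D with at most 4 UMIs in a group, and whether the counting used strand is not given in the sources used here.

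A split by HSH2D was also made in untreated cells. Cells with at least 1 HSH2D UMI were taken as positive, because only 20 and 31 untreated cells had 5 or more. The split was not alike in the conditions. Of positive DOX cells, 208 of 957 and 196 of 745 had 5 or more HSH2D UMIs, against 20 of 1255 and 31 of 854 in untreated libraries. What this unequal HSH2D contrast adds to the differences below was not tested. In DOX cells 383 of 16507 genes (2.32%) were higher and 824 (4.99%) lower in HSH2D-positive cells, whereas in untreated cells 3 genes (0.0182%), ELF3 and DDIT4 among them, were higher and 0 lower, with 1084 at an unadjusted p under 0.05 and 7 called by DESeq2. These counts came from a fit over all 4 libraries and moved widely when 1 was left out. The DOX counts were 571 higher and 961 lower without DOX replicate 1, 1439 and 2892 without DOX replicate 2, 0 and 2 without untreated replicate 1 and 188 and 283 without untreated replicate 2. The untreated counts were 818 higher and 865 lower without DOX replicate 1, 820 and 880 without DOX replicate 2, 0 and 0 without untreated replicate 1 and 3 and 0 without untreated replicate 2. With library totals the balance in DOX cells turned to 1600 higher and 303 lower. DDX58 had 69.0 and 69.4 CPM in positive against 32.9 and 43.1 CPM in negative DOX cells (log2 fold change 0.69, adjusted p = 0.0122), and 11.6 and 10.6 CPM in positive against 9.08 and 8.18 CPM in negative untreated cells (0.32, adjusted p = 0.603). The DOX effect less the untreated effect was 0.37 for DDX58 (adjusted p = 0.370), so a difference between the conditions was not shown. The median of 25 U-ISGF3-induced genes was 0.23 in DOX cells and 0.09 in untreated cells, beside medians of -0.06 and -0.01 over all genes. The rank correlation of span with log2 fold change across genes was 0.316 in DOX and 0.254 in untreated cells. Tested directly, the difference between HSH2D-positive and HSH2D-negative cells was not the same in DOX and untreated cells for 4 genes (0.0242%). The log2 difference in DOX cells less that in untreated cells was above 0 for 0 of them and below 0 for 4. This sign does not say that a gene was lower in DOX cells than in untreated cells.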

How the data were processed

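Single-cell RNA-seq UMI counts of 2 DOX-treated and 2 untreated HCT-116 libraries were analysed as deposited. The authors aligned the reads to hg19 and counted UMIs per gene and barcode with Cell Ranger (version 7.2.0 per the file headers, 7.0.0 per the submitters' processing notes), and the matrices hold 32738 genes, with 8000 barcodes in each DOX library and 4701 and 2528 in the untreated ones. The libraries held 159897846 and 170495465 UMIs (DOX) and 317489299 and 209547139 UMIs (untreated).

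The cells, gene lists and comparisons were chosen with earlier results of these data known. Deep barcodes were kept by the limits given above, and doublets were not called. UMIs were summed per library and group, with all UMIs and after thinning each cell to 20000 UMIs. HSH2D was left out of the tests. The sums were tested with edgeR 4.0.16 (filterByExpr, TMM, glmQLFit and glmQLFTest) with library as a block, because both groups come from the same library, and p-values were adjusted by Benjamini-Hochberg. Log2 fold changes are given with SE. R 4.3.3, DESeq2 1.42.0, limma 3.58.1 and Python 3.11.15 were used. The rule for named genes took HSH2D, genes central to the study's single-cell results, from each list the 3 genes lowest in adjusted p, the 5 genes with the smallest interaction p in each direction, the 5 nearest genes on each side of HSH2D, and the 10 largest rises and falls among genes called with and without thinning, with the same sign in both libraries and at least 20 CPM in the higher group. Some genes that the rule or the lists take are not reported here. Other called members of the lists are named after their values were seen. Gene spans came from GENCODE 44 on hg19, which matched 31182 of 32738 IDs (95.2%), and promoter sequences from RefSeq. Alternatives were DESeq2, limma, library totals, other HSH2D, UMI and mitochondrial limits, no filter, no block, other thinning, matched cells and leaving out libraries or top cells. The scripts were tested on simulated counts with known changes. In the thinned comparison 20.9% of 1.5-fold, 56.7% of 2-fold and 95.5% of 4-fold changes were recovered, with 3.36% of calls false. With all UMIs 6.72% of calls were false. A gene given as not called may therefore still differ.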

Additional observations from a re-analysis of the deposited data

Results flagged for a closer look

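For 4 genes the difference between HSH2D-positive and HSH2D-negative cells was not the same in DOX and untreated cells. This was tested on the difference itself, with edgeR's quasi-likelihood test and Benjamini-Hochberg adjustment over 16507 genes. HSH2D only sorted the cells and was not altered. More of the positive cells had 5 or more HSH2D UMIs in DOX than in untreated libraries, so the split was not alike in the conditions. GADD45A had 90.2 and 69.5 CPM in HSH2D-positive against 196 and 143 CPM in HSH2D-negative DOX cells, and 44.2 and 37.6 CPM in positive against 39.6 and 39.5 CPM in negative untreated cells, a DOX minus untreated difference of -1.30 on the log2 scale (adjusted p = 0.0153). ATF3 had 46.0 and 39.7 CPM against 88.7 and 81.6 CPM in DOX cells and 12.9 and 13.5 CPM against 13.6 and 13.6 CPM in untreated cells (-1.10, adjusted p = 0.0185). CDKN1A had 229 and 159 CPM against 324 and 225 CPM in DOX cells and 29.3 and 31.4 CPM against 23.7 and 25.7 CPM in untreated cells (-0.95, adjusted p = 0.0275). IL12A-AS1, a noncoding RNA, had 6.74 and 5.30 CPM against 16.9 and 13.1 CPM in DOX cells and 3.43 and 2.99 CPM against 2.20 and 2.48 CPM in untreated cells (-1.97, adjusted p = 0.0468). In each of the 4 genes both DOX libraries had less in positive than in negative cells. Without untreated replicate 1 none of the 4 was called, though the sign of each was kept. With all cells kept, 1 negative cell held 509 of 1185 thinned GADD45A UMIs in replicate 1 and 1 held 205 of 619 in replicate 2.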

How the results depend on the processing

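Matching on the long gene share or the ribosomal protein share, and the setting without the 3 top cells of each gene, were chosen after the data were seen. With thinned cells the main counts were 1285 higher and 984 lower genes. They were 242 and 438 with DESeq2, 603 and 157 at 10 or more HSH2D UMIs, 720 and 373 at 3 or more, 17 and 12 matched on the long gene share, 484 and 429 matched on the ribosomal protein share and 3115 and 3171 with a mitochondrial limit of 20%. They were 1602 and 1805 with groups set after thinning, 1713 and 182 with limma, 1853 and 1716 matched on UMIs and 1836 and 185 with library totals. With all UMIs (2229 and 2050) the counts were 864 and 1066 with DESeq2, 1185 and 623 at 10 or more HSH2D UMIs, 28 and 6 matched on the long gene share, 232 and 115 matched on the ribosomal protein share, 4177 and 4319 with the mitochondrial limit of 20% and 3816 and 439 with library totals, and limma gave 181 lower. HSH2D-low cells (136 and 163) gave 20 and 108 with DESeq2, and 318 higher at 20%, 279 with totals and 62 under 100000 UMIs. The DOX against untreated difference (0 and 4, with 1868 genes at an unadjusted p under 0.05) gave 9 and 95 with DESeq2, 376 and 1359 at 20%, 40 and 153 without a filter, and 1 higher under 100000 UMIs. Leaving out 1 library gave 0 to 694 higher and 0 to 1833 lower. HSH2D-positive against negative DOX cells (383 and 824) gave 1548 and 3448 at 20% and 826 and 1078 without a filter, and the same split of untreated cells (3 and 0) gave 61 and 0, and 77 and 2. In the high and low comparisons leaving out a library left values with no test. The cause of these shifts was not tested.

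The p53 median turned to 0.0754 and 0.0675 with all UMIs, matched on the long gene and on the ribosomal protein share, and to 0.00554 in thinned cells matched on the ribosomal protein share. The ribosomal protein median turned to 0.0108 with all UMIs and 0.0161 thinned, matched on the long gene share. GDF15 turned to -0.42 with groups set after thinning and -0.54 matched on UMIs. Matched on the long gene share KRTAP3-1 was 0.14, BIK 0.54, IGFBP6 0.34, KRT18 0.23, RPS12 0.0209 and RPL28 0.0906. BIK was 0.25 matched on the ribosomal protein share. The cause was not tested.

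Both groups came from the same library, so the library was a block. Without the block the counts were 1175 and 1032 thinned, 2037 and 1891 with all UMIs, 0 and 0 for HSH2D-low cells, and 0 and 5 for the DOX against untreated difference.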

Other observations

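Calls in other groups of genes between HSH2D-high and HSH2D-negative DOX cells are set beside the shares over all genes tested, 9.95% higher and 7.62% lower. Among apoptosis genes 1 (4.17%) was higher and 4 (16.7%) were lower. Of 24 tested apoptosis genes CASP8, an initiator caspase, was higher (log2 fold change 0.54, with 0.26 in replicate 2 alone), while BAK1, CYCS and BIK were among the lower ones (-0.72, -0.49 and -0.52), with CYCS at -0.32 in replicate 2 alone. Of 11 genes of the secretory phenotype of senescent cells IGFBP6 alone was called (-0.54), and of 9 NF-kB targets NFKBIA alone (-0.59, with -0.34 in replicate 2 alone, and adjusted p = 0.0610 without the top cells). Cholesterol synthesis gave SREBF2 higher (0.51) and DHCR7 lower (-0.57, with -0.38 in replicate 2 alone) of 17 genes. Of 17 genes that silence endogenous retroviruses DAXX alone was called (-0.55), and of 13 hypoxia genes LDHA alone (-0.60). The share lower was 9.09% in the secretory list, 11.1% in the NF-kB list and 7.69% in the hypoxia list. In the cholesterol and silencing lists it was 5.88%, and single calls in such short lists lie near the share over all genes. None of 13 mitochondrially encoded genes was called (median -0.14, and 0.08 with library totals).

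By chromosome, where 7.62% of all tested genes were lower in HSH2D-high cells, 53 of 385 genes of chromosome X (13.8%) and 87 of 748 genes of chromosome 3 (11.6%) were lower, the 2 highest shares. On chromosome 3, 41 genes (5.48%) were higher. On chromosome 3 beyond 100 Mb, a limit chosen after the values were seen, 66 of 385 genes (17.1%) were lower and 11 higher, with median log2 ratios of -0.42 in replicate 1 and -0.03 in replicate 2. Up to 100 Mb 21 of 363 were lower, with medians of 0.11 and -0.12.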
